A study of Caenorhabditis elegans with 6 samples.

Results

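The major sperm protein genes and the other sperm families of Caenorhabditis elegans were examined in whole hermaphrodites that reached the L4 stage with or without cycloheximide (CHX), an inhibitor of translation elongation. The genes were chosen by symbol from a table of 20189 protein-coding genes: symbols beginning with msp, ssp, ssq or sss followed by a number, together with gsp-3 and gsp-4. This gave 50 genes, of which 31 were msp, 12 ssp, 4 ssq, 1 sss and 2 gsp. All 6 samples carried rpl-36A(P55Q), an altered large-subunit ribosomal protein gene, over mIn1, a balancer inversion of chromosome II, so the control animals had the same genotype as the treated ones. In the 3 no_CHX samples eggs were grown at 23 °C for 2 days without drug, and in the 3 CHX samples for 3 days on plates with 500 µg/ml CHX. The effects of drug and age therefore cannot be told apart. Nothing in the labels tells whether replicates were grown as separate cultures, so p-values cover only how far these samples differ from each other, and that spread may be technical.

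The major sperm protein, MSP, is the cytoskeletal protein of nematode sperm. It assembles into filaments that push the pseudopod of the crawling, amoeboid cell, and it is also released from sperm as a signal that starts oocyte maturation and contraction of the gonadal sheath. In C. elegans it is encoded by many short, near-identical genes that are transcribed while spermatocytes form. Hermaphrodites make sperm first, around the last larval stage, and then switch the germ line to oocytes.

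Total counts over coding sequence ran from 313767 to 414781 per sample, and 5641 genes had enough counts to be tested. Levels are given in CPM, counts relative to a library size scaled by TMM factors, which correct for differences in library composition. Fitted changes are given on the log2 scale ± their standard error. The floor used here, 3 counts, corresponds to 7.22 to 10.6 CPM. As to the labelled sex, 6 markers of male seminal fluid and male tail held 16 counts in all over the 6 samples, with lov-1 and cil-7 at 0. Without male samples for comparison, such low counts cannot exclude a few males. In RNA from whole animals, fewer cells of a type and less RNA per cell cannot be told apart.

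Sperm family transcripts were lower in every CHX sample than in every sample without drug. The 50 genes together stood at 2918, 2802 and 2867 CPM without CHX, and at 1713, 1236 and 1484 CPM with it. The means were 2862 ± 57.9 and 1478 ± 238 CPM (SD, n = 3), 1.94-fold lower on CHX (log2 ratio -0.95). The samples without drug lay close together, and CHX replicate 2 was the lowest of all. As a share of all counts, the 50 genes took 0.253%, 0.254% and 0.259% without CHX and 0.170%, 0.122% and 0.149% with it. How reads were divided among near-identical copies within the 50 does not alter this sum, as long as each read was counted once. Reads dropped for matching several copies, counted at each copy or given to sequences outside the 50 would alter it.

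Of the 50 genes, 23 were tested, 21 had counts but too few for the test, and 6 had no count in any sample. With edgeR's quasi-likelihood test, adjusted over all 5641 genes, 14 of the 23 were lower on CHX and 0 were higher. Over all tested genes, 14.9% were called lower and 10.3% higher. Fitted log2 fold changes of the 23 ran from -1.64 to 0.33 with a median of -1.01, against a median of 0.02 for all tested genes. In 21 of the 23 the fitted change was below 0, as it was in 49.2% of all tested genes. In 16 of the 23 every CHX sample lay below every sample without CHX, a pattern held by 20.2% of all tested genes, and in 0 did every CHX sample lie above, against 19.5% of all tested genes. The filter on low counts bears on these figures. In 12 of the 23 genes all samples passed its cutoff, and in 8 all 3 samples without CHX but not all CHX samples did, 1 of them with no CHX sample over it. With every gene that had a count included, 36 of 44 sperm genes had a change below 0 and the median was -0.92. Leaving out a library moved the number called lower by more than 1.5 times in 4 cases. Leaving out replicate 1 or replicate 2 of the no_CHX group gave 9, and leaving out replicate 2 or replicate 3 of the CHX group gave 8. Over all tested genes 582 to 747 were called lower with 1 library left out, against 840 with all libraries. Scaled by library totals instead of TMM, 8 of the 23 were lower. Under that scaling 851 of all tested genes were called higher and 605 lower, against 579 and 840 with TMM.

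**Figure D1:**
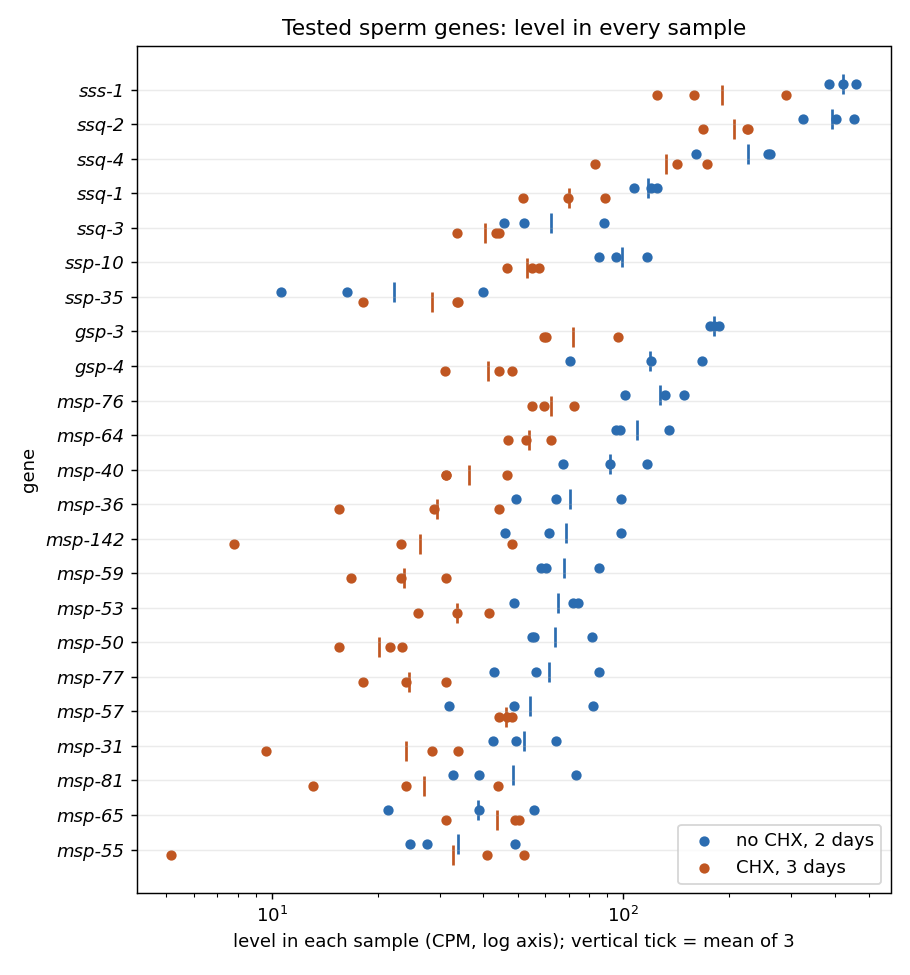
Level of each of the 23 tested sperm genes in every sample, in CPM on a log axis, with 3 points per group (blue, no CHX for 2 days; orange, CHX for 3 days) and a vertical tick at each group's mean. In 16 genes all orange points lie left of all blue points; msp-55, msp-57, msp-65 and ssp-35 are among those that overlap.

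The motility protein genes came first in number. All 31 msp genes have a single coding exon, a structure found in 3.66% of annotated transcripts of the table. Of these, 28 share a coding length of 381 bases, so length does not set their levels apart, although reads shared between copies leave the level of each copy uncertain. The other 3, msp-32 with 357 bases and msp-58 and msp-74 with 231 bases, were the msp genes without a count in any sample. Summed over the 31 genes, msp transcripts stood at 1370, 1093 and 1004 CPM without CHX and at 622, 607 and 606 CPM with it. The means were 1156 ± 191 and 611 ± 8.77 CPM (SD, n = 3), 1.89-fold lower, and the groups did not overlap.

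Of 14 msp genes tested, 8 were lower on CHX and 0 higher, against 14.9% and 10.3% of all tested genes. Their median log2 fold change was -1.07. This count changed with the tool, the scaling, the filter and the libraries used. It was 5 with DESeq2 or without a filter and 4 with library totals. It was 3 without no_CHX replicate 1, 5 without no_CHX replicate 2 or CHX replicate 1, and 4 without CHX replicate 2 or CHX replicate 3. The number called lower among all tested genes fell as well. It was 840 in the main fit, 665 with DESeq2, 605 with library totals and 582 to 747 with 1 library left out. Without a filter it was 737 of 13894. The most abundant copy was msp-76 (WBGene00003463; chromosome IV, 9688982 to 9689433, WBcel235), at 131, 101 and 149 CPM without CHX and 54.8, 59.6 and 72.2 CPM with it. Every CHX sample was below every control sample, and the fall was 2.02-fold (-1.02 ± 0.31 on the log2 scale, adjusted p 0.0166). Leaving out no_CHX replicate 3, CHX replicate 1 or CHX replicate 2 gave adjusted p 0.0621, 0.0639 and 0.0557.

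On chromosome II, msp-64 (5809917 to 5810342) came next in level, at 134, 98 and 95.5 CPM without CHX and 47.01, 62.2 and 52.9 CPM with it. It fell 2.02-fold (-1.01 ± 0.33 on the log2 scale, adjusted p 0.0231), with adjusted p 0.0948, 0.0833 and 0.0736 without no_CHX replicate 1, CHX replicate 1 and CHX replicate 3. The call was also lost with library totals (0.0539) and without a filter (0.0648). The msp-40 gene (chromosome II, 4825380 to 4825837) went from 91.8, 116 and 67.2 CPM to 31.3, 46.7 and 31.3 CPM, again without overlap. It fell 2.52-fold (-1.33 ± 0.38 on the log2 scale, adjusted p 0.00972; 0.0642 without no_CHX replicate 2).

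The lowest fitted value among the 23 genes was that of msp-50 (WBGene00003443; chromosome II, 5199763 to 5200223). Its level was 55.7, 55.1 and 81.3 CPM without CHX and 23.5, 15.6 and 21.7 CPM with it. The change was 3.11-fold (-1.64 ± 0.46 on the log2 scale, adjusted p 0.00942), and the call held in all 14 alternatives in which msp-50 was tested. With CHX it had 9, 6 and 9 counts, and it is the 1 tested member with no CHX sample over the filter's cutoff: it entered the test through the samples without CHX, where it is high, so it had to differ. Its neighbour msp-49, on the same strand 4970 bases away, had 6 counts without CHX and 17 with it. Scaled to library size the ratio was 2.19 (95% counting interval 0.823 to 6.78). Counting intervals cover counting error only.

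The msp-59 gene (chromosome IV, 5312693 to 5313149) fell from 85.2, 58.2 and 60.1 CPM to 31.3, 23.3 and 16.8 CPM, 2.83-fold (-1.50 ± 0.45 on the log2 scale, adjusted p 0.0135). That call was lost without no_CHX replicate 1 (0.0602) or CHX replicate 3 (0.0749). The calls of msp-36, msp-77 and msp-142 were lost in 8, 9 and 9 of 14 alternatives, for each gene DESeq2, library totals and no filter among them. For msp-77 the log2 fold change was -1.31 ± 0.46 (adjusted p 0.0358; 0.177, 0.0527, 0.125 and 0.1 without no_CHX replicate 1, no_CHX replicate 3, CHX replicate 2 and CHX replicate 3). For msp-36 it was -1.25 ± 0.45 (adjusted p 0.0383; 0.182, 0.0583, 0.176 and 0.11 without no_CHX replicate 1, no_CHX replicate 2, CHX replicate 2 and CHX replicate 3). In msp-142 the groups overlapped, at 98.3, 61.3 and 45.96 CPM without CHX and 7.83, 23.3 and 48.1 CPM with it. Its log2 fold change was -1.35 ± 0.49 (adjusted p 0.0424), with adjusted p 0.199, 0.0663, 0.195 and 0.0982 without no_CHX replicate 1, no_CHX replicate 2, CHX replicate 1 and CHX replicate 2.

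Copies of the same coding length did not all give the same value. Without a call were msp-31 (-1.12 ± 0.50 on the log2 scale), msp-53 (-0.94, SE 0.42), msp-81 (-0.84, SE 0.51), msp-57 (-0.23, SE 0.42), msp-55 (-0.04, SE 0.57) and msp-65 (0.18, SE 0.46). In msp-31 and msp-53 the groups still did not overlap. The msp-65 gene stood at 55.7, 21.4 and 38.9 CPM without CHX and 31.3, 49.3 and 50.5 CPM with it. The level of msp-55 was 5.18 CPM in CHX replicate 2 and 52.2 and 40.9 CPM in the other CHX samples, so its CHX mean rests on which library is read. The msp-57, msp-55 and msp-65 genes, which lie in the same stretch of chromosome IV as msp-59, changed sign in 1, 4 and 1 of 14 alternatives. Whether these 3 differ from the other copies was not tested, since they were singled out after their values were seen and reads may be shared between copies.

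**Figure D2:**
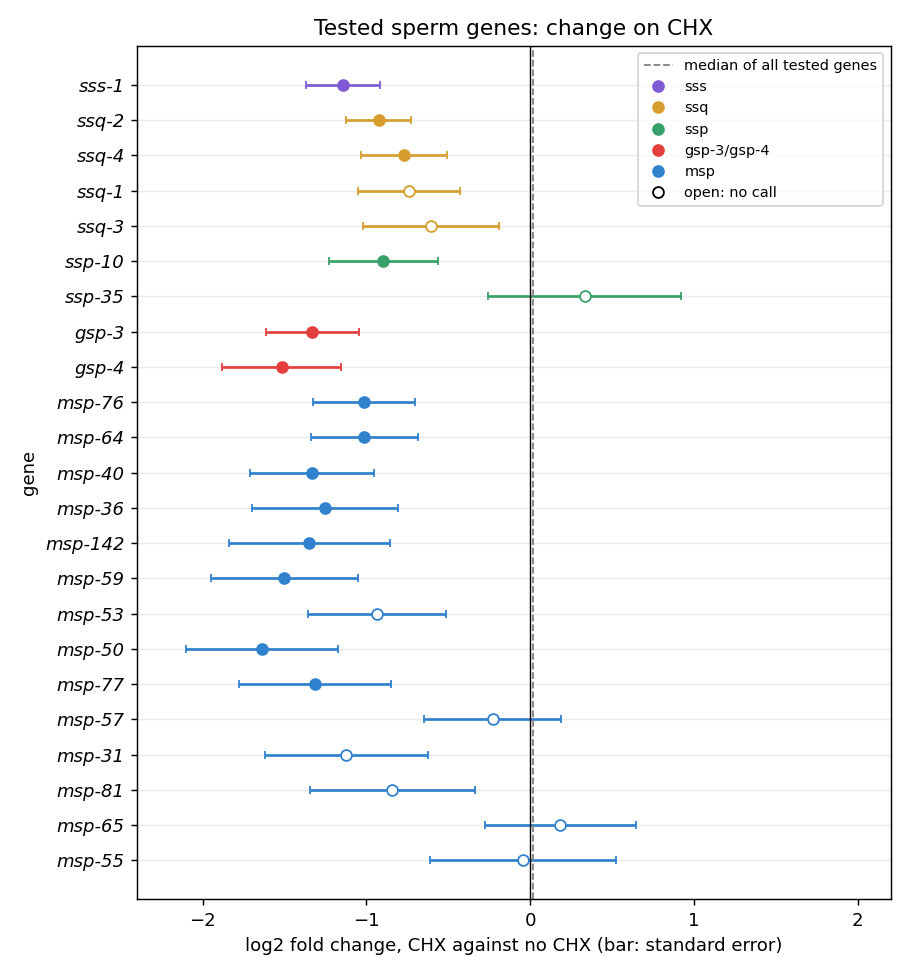
Fitted log2 fold change on CHX for the 23 tested sperm genes with its standard error, coloured by family, filled where the adjusted p passed 0.05 and open where it did not; the dashed line is the median of all tested genes, 0.02. The 14 filled points lie between -1.64 and -0.77, and the 2 points above 0, msp-65 and ssp-35, are open.

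The phosphatase genes gsp-3 and gsp-4 encode sperm-specific catalytic subunits of protein phosphatase 1 that act in sperm meiosis and in MSP-based motility. Both lie on chromosome I, gsp-3 from 4709262 to 4710712 and gsp-4 from 3838237 to 3839899, with 3 coding exons and a coding length of 915 bases each. The level of gsp-3 was 187, 181 and 177 CPM without CHX and 96.6, 59.6 and 60.1 CPM with it. All 3 CHX samples lay far below the narrow control range, and gsp-3 fell 2.51-fold (-1.33 ± 0.28 on the log2 scale, adjusted p 0.000775). The level of gsp-4 was more spread without CHX, at 167, 70.4 and 120 CPM, but remained above the 44.4, 31.1 and 48.1 CPM with it. It fell 2.86-fold (-1.52 ± 0.36 on the log2 scale, adjusted p 0.00239). Both calls held in all 15 alternatives.

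The broadly expressed paralogs gsp-1 and gsp-2 had no call. Their log2 fold changes were -0.22 ± 0.25 (adjusted p 0.558) and 0.14 ± 0.18 (adjusted p 0.606). Of all reads counted to the 4 phosphatase genes, gsp-3 and gsp-4 took 35.2% (95% exact binomial interval 29.8 to 40.8%), 33.6% (27.7 to 39.9%) and 34.9% (28.9 to 41.2%) in the samples without CHX. With CHX they took 18.4% (14.1 to 23.3%), 12.1% (8.58 to 16.4%) and 19.2% (14.4 to 24.9%). The intervals of the 2 groups do not overlap in any sample. Near-identical coding sequence may let gsp-3 and gsp-4 trade reads, which would leave their sum as it is.

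The remaining families bear names of sperm-specific classes, P for ssp, Q for ssq and S for sss. The single class S gene, sss-1 (WBGene00006056; chromosome IV, 9892739 to 9893779, 3 coding exons), held the most counts of the 50. It stood at 384, 423 and 460 CPM without CHX and at 290, 124 and 159 CPM with it, and fell 2.21-fold (-1.14 ± 0.23 on the log2 scale, adjusted p 0.000378). CHX replicate 1 lay between the other samples of its group and the controls. The call held in all 15 alternatives, with a log2 fold change between -1.57 and -0.91. Per kilobase of coding sequence, sss-1 was at 506 ± 45.6 CPM without CHX. That was above msp-76 at 333 ± 63.0, ssq-2 at 323 ± 53.0 and msp-64 at 287 ± 57.2 CPM per kilobase, and the last 3 did not differ beyond their spread.

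All 4 ssq genes had fitted changes below 0, and 2 were called lower. Over all tested genes 49.2% were below 0 and 14.9% were called lower. The level of ssq-2 (WBGene00006051; chromosome IV, 4996142 to 4997559) was 325, 401 and 453 CPM without CHX and 225, 168.5 and 226 CPM with it. The groups were apart, and ssq-2 fell 1.90-fold (-0.92 ± 0.20 on the log2 scale, adjusted p 0.000824), in all 15 alternatives too. The ssq-4 gene (chromosome IV, 5016479 to 5017741) stood at 161, 257 and 262 CPM and then at 172, 82.9 and 142 CPM. The groups overlapped through no_CHX replicate 1 and CHX replicate 1. It fell 1.71-fold (-0.77 ± 0.26 on the log2 scale, adjusted p 0.03; 0.106, 0.113, 0.192 and 0.0736 without no_CHX replicate 2, no_CHX replicate 3, CHX replicate 2 and CHX replicate 3). The ssq-4 call was lost in 6 of 15 alternatives, also with DESeq2 (0.0653) and library totals (0.0802). The ssq-1 gene had 125, 107 and 120 CPM against 88.8, 51.8 and 69.8 CPM, without overlap and without a call (-0.74 ± 0.31 on the log2 scale, adjusted p 0.0817). The log2 fold change of ssq-3 was -0.60 ± 0.41 (adjusted p 0.301).

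Of 12 ssp genes 2 were tested. The ssp-10 gene (chromosome IV, 9850648 to 9851070) fell from 85.2, 116 and 95.5 CPM to 54.8, 46.7 and 57.7 CPM, 1.86-fold (-0.90 ± 0.33 on the log2 scale, adjusted p 0.0465). This call was lost in 11 of 15 alternatives, DESeq2 (0.0951) and library totals (0.1) among them. Leaving out no_CHX replicate 2, no_CHX replicate 3, CHX replicate 1, CHX replicate 2 or CHX replicate 3 gave 0.149, 0.0679, 0.0955, 0.154 and 0.091. The ssp-35 gene, on chromosome V, stood at 16.4, 39.8 and 10.6 CPM without CHX and 33.95, 18.1 and 33.7 CPM with it, without a call (0.33 ± 0.59 on the log2 scale).

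**Figure D3:**
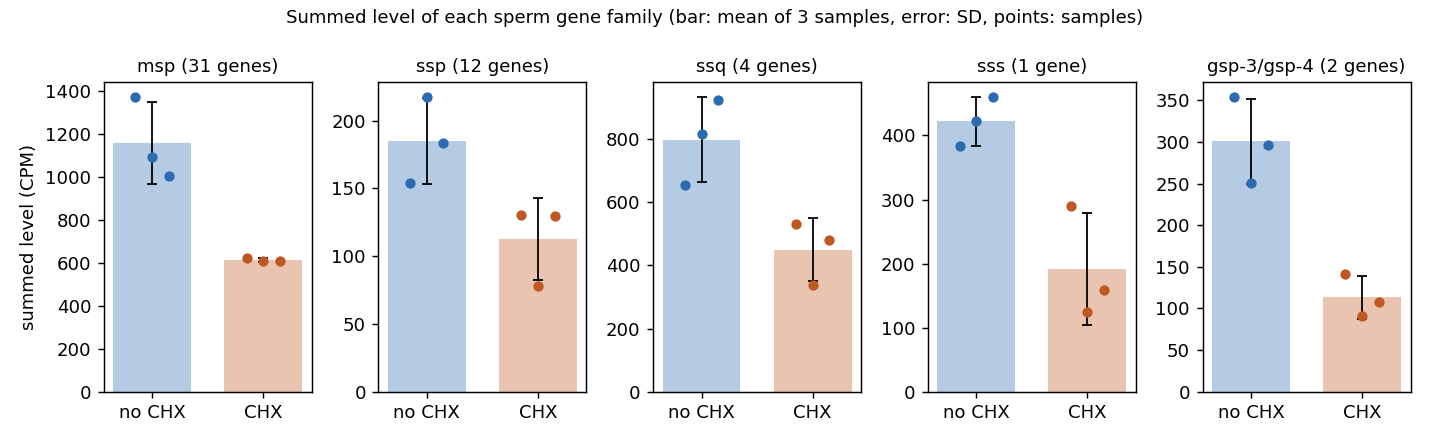
Summed level of each sperm gene family in CPM, with a bar for the mean of 3 samples, an error bar for the SD and a point for every sample (blue, no CHX; orange, CHX). The msp sum went from 1156 to 611 CPM with CHX samples nearly equal, whereas the sss-1 values with CHX spread from 124 to 290 CPM.

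By family, the summed levels without and with CHX were 301 ± 51.6 and 113 ± 25.5 CPM for gsp-3 and gsp-4, 799 ± 135 and 449 ± 100 CPM for ssq, and 185 ± 31.7 and 113 ± 30.3 CPM for ssp (SD, n = 3). These are 2.65-fold, 1.78-fold and 1.64-fold lower. In each family every CHX sample was below every sample without drug. The families did not rank the CHX samples alike. The ssq, ssp, sss and gsp sums were lowest in CHX replicate 2, while the msp sum was the same there as in CHX replicate 3, at 607 and 606 CPM. Whether the size of the fall differs between families was not tested.

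The 27 genes outside the test held 431 of the 4366 counts of the 50 genes. Together they stood at 308, 273 and 219 CPM without CHX and at 191, 140 and 142 CPM with it. Of these genes, 16 had a higher mean without CHX, 5 had a higher mean with it and 6 had no count. The clearest was msp-3 (chromosome II, 4785861 to 4786316), with 16, 12 and 4 counts without CHX and 2, 2 and 1 with it. The ratio of its counts, scaled to library size, was 0.121 (95% counting interval 0.0367 to 0.312). With the looser filter, under which msp-3 was tested, its log2 fold change was -2.91 with an adjusted p of 0.00933, and without a filter -2.87 with 0.0115. The ssp-16 gene on chromosome I had 4, 8 and 6 counts without CHX and 1, 2 and 0 with it, a ratio of 0.129 (interval 0.0243 to 0.441; adjusted p 0.0588 with the looser filter). In the other direction ssp-19, also on chromosome I, had 1, 0 and 2 counts without CHX and 4, 3 and 5 with it, a ratio of 3.09 (interval 0.833 to 17.05, which includes no change). Both msp-3 and ssp-16 passed the looser filter through the samples without CHX alone, where they are high, so in that test they had to differ. All 3 genes, ssp-19 included, were picked out after their values were seen.

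Some members were at or near 0 in every sample. No count was found for msp-32, msp-58, msp-74, ssp-11, ssp-32 and ssp-36, which allows a level of up to 7.22 to 10.6 CPM per library. Between 1 and 4 counts in all were found for ssp-9, ssp-33, ssp-37, msp-63 and msp-79. These genes cannot be compared at this depth.

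**Figure D4:**
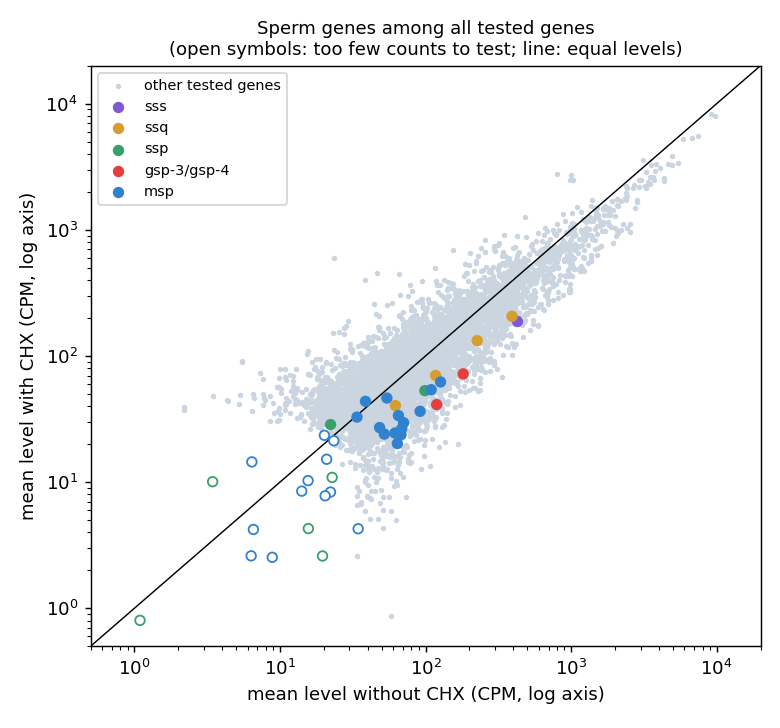
Mean level with CHX against mean level without it for all tested genes (grey) and for sperm genes with counts in both groups (coloured by family; open where too few counts allowed no test), both in CPM on log axes with a line of equal levels. The most abundant members, sss-1 and ssq-2, and most msp genes lie below the line. Of the tested members msp-65 and ssp-35 lie just above it, and the untested msp-19, msp-49 and ssp-19 also lie above it.

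The genes are gathered in few places, which the choice by symbol did not use. On chromosome II, 13 msp genes lie between 4785861 and 5810342. On chromosome IV, 13 members, 9 of them msp, lie between 4994324 and 5316944, and 15 members, 9 of them msp, between 9688982 and 10738658. The ssq-3 gene stands alone on chromosome IV, 6 members are on chromosome I, 2 on chromosome V and none on chromosome III or X. Within 5 kilobases of each other there were 15 pairs of neighbouring members, 8 arranged head to head, 3 tail to tail and 4 on the same strand.

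Neighbours could differ widely in counts. The head-to-head genes msp-63 and msp-142, 410 bases apart, held 4 and 95 counts over the 6 samples. Across 1402 bases ssp-9 and ssq-2 held 1 and 603 counts. The sss-1 gene and msp-77, 816 bases apart and also head to head, held 610 and 85 counts and were both called lower.

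The mean summed level was lower on CHX in each of the 3 gatherings. Chromosome II members went from 477 ± 60.6 to 217 ± 11.3 CPM (SD, n = 3), with 4 of 5 tested genes called lower. The left stretch of chromosome IV went from 916 ± 42.2 to 548 ± 91.3 CPM with 3 of 7 called. The right stretch went from 1045 ± 5.65 to 510 ± 115 CPM with 5 of 7 called. Of all tested genes 14.9% were called lower. The share of msp counts that came from chromosome II was 39%, 44.3% and 41.2% without CHX and 35.7%, 37.2% and 33.7% with it. Every CHX share lay below every share without CHX, a difference that was not tested. The 95% exact binomial intervals of single samples are wide, for example 34.3 to 43.9% in no_CHX replicate 1 and 29.6 to 42.2% in CHX replicate 1, and overlap between groups. Chromosome II is the chromosome that mIn1 balances, and counts per gene cannot tell the copy on the balancer from the other.

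The spans of 6 members overlapped those of other genes. The msp-31 gene lies inside aagr-2, for an alpha-glucosidase-related protein, on the same strand. The aagr-2 gene had a log2 fold change of -0.93 (adjusted p 0.000394), and msp-31 itself had no call. The gsp-4 gene overlaps T03F1.6 and ssq-4 overlaps T28H11.7, which held 9 and 20 counts in all, against 157 and 364 for the sperm genes. The others were msp-33, msp-38 and msp-45, which lie inside the spans of gst-9, dhs-12 and srb-13. Whether reads of the overlapping genes were counted to these members was not tested. No coding sequence of a member overlapped that of another gene in the annotation.

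Sperm genes outside the 50 were read for comparison from lists. Numbers called in these and the following lists stand beside 14.9% lower and 10.3% higher over all tested genes. Of 31 other sperm-enriched genes 24 were in the table, 8 were tested, 7 were lower on CHX and 0 higher, with a median log2 fold change of -1.45 over those 8. The filter bears on this median as well: it was -0.91 over 17 genes with the looser filter and -0.77 over the 21 genes with a count, with 6 lower in both. Their summed level was 1795 to 1842 CPM without CHX and 596 to 995 CPM with it. The Argonaute genes alg-3 and alg-4, whose products act with small RNAs in spermatogenesis, fell 3.404-fold and 3.09-fold (adjusted p 3.22e-05 and 2.26e-05). The alg-4 values were 269, 193 and 265 CPM without CHX and 83.6, 88.1 and 62.5 CPM with it. The msd-4 gene, the most abundant of this list, fell 1.97-fold (adjusted p 0.000643).

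Of 34 genes for sperm formation and fertilization 27 were in the table, 8 were tested, 4 were lower and 0 higher, with a median of -1.12 over those 8, and of -1.11 over the 24 genes with a count. The fer-1 gene, for a ferlin needed when membranous organelles fuse with the sperm surface, stood at 161, 91.9 and 134 CPM without CHX and 33.95, 25.9 and 21.7 CPM with it. It fell 4.70-fold (-2.23 ± 0.37 on the log2 scale, adjusted p 3.77e-05). The spe-41 gene, for a sperm calcium channel needed at fertilization, fell from 72.1, 85.8 and 81.3 CPM to 18.3, 10.4 and 14.4 CPM, 5.44-fold (-2.45 ± 0.46 on the log2 scale, adjusted p 0.000223). With 7, 4 and 6 counts on CHX it too passed the filter through the samples without CHX alone. The spe-15 gene, for a myosin, fell 1.98-fold (adjusted p 0.00322). Of the 8 tested genes, 2 had a fitted change above 0, without a call. These were spe-39 (0.27 ± 0.34 on the log2 scale) and zipt-7.1 (0.72 ± 0.38, adjusted p 0.1685). In zipt-7.1 every CHX sample lay above every sample without CHX.

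A list of sperm fate regulators, with spe-44, elt-1 and cpb-1 among its 10 genes, gave no call. Of the 10, 5 were tested and 0 passed, whether by edgeR, by limma-voom or by DESeq2. By edgeR 0 had an unadjusted p under 0.05. Without a filter all 10 were tested and 0 were called. The most abundant were tra-1, the terminal sex-determination factor, with a log2 fold change of 0.05 ± 0.20, and fem-2, with 0.24 ± 0.33. The summed level of these 10 genes was 557 to 784 CPM without CHX and 601 to 739 CPM with it. Counts of single genes moved both ways. Scaled to library size, the ratio for fem-3 was 2.93 (counting interval 1.43 to 6.60), from 10 counts without CHX and 38 with it. For fog-1 it was 2.57 (1.19 to 6.16), from 9 and 30 counts, and for spe-44 0.62 (0.41 to 0.94). In each of these genes the groups overlapped, and the intervals cover counting error only. For the rest of the list the interval included no change.

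Other germline and body markers also differed between the groups, oocyte markers upward and muscle markers downward. All 15 oocyte markers were higher on CHX, and their summed level was 5573, 4193 and 5585 CPM without CHX and 13890, 14840 and 14220 CPM with it. Counts of oocyte markers per sperm gene count were 1.91, 1.496 and 1.95 without CHX and 8.11, 12 and 9.58 with it. The eggshell gene cpg-1 and the eggshell assembly gene cbd-1 had the smallest p of that list (1.79 ± 0.12 on the log2 scale, and 1.27, SE 0.12). Of 18 tested markers of mitotic and pachytene germ cells 7 were higher and 1, glh-1, was lower, with summed levels of 3760 to 4009 CPM and 4520 to 4767 CPM. The number higher was 4 without CHX replicate 1 or CHX replicate 2 and 1 without CHX replicate 3. All 10 body wall muscle markers were lower, from 11340 to 16190 CPM down to 8357 to 8852 CPM, and 6 were without no_CHX replicate 2, without CHX replicate 3 or with library totals. The part of these cell types in the change of the sperm genes was not tested.

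On the receiving side of the MSP signal, 12 of 16 genes were tested, 3 were higher on CHX and 0 lower. Over all tested genes the shares were 10.3% and 14.9%. In 5 of the 12 every CHX sample lay above every sample without CHX, and in 2, gsa-1 and unc-43, every CHX sample lay below. These patterns were held by 19.5% and 20.2% of all tested genes. The vab-1 gene, for an Eph receptor that binds MSP, stood at 68.8, 61.3 and 81.3 CPM without CHX and 167, 181 and 161 CPM with it, rising 2.41-fold (1.27 ± 0.28 on the log2 scale, adjusted p 0.0012). The oocyte maturation gene oma-2 rose 4.68-fold (2.23 ± 0.24 on the log2 scale, adjusted p 8.3e-08), and its relative oma-1 rose as well (1.37 ± 0.34 on the log2 scale). The 9 tested genes of this list without a call had log2 fold changes from -0.69 to 1.09. Among them was clr-1, for a receptor tyrosine phosphatase (0.64 ± 0.26, adjusted p 0.0639), and with library totals 5 genes of the list were higher.

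**Figure D5:**
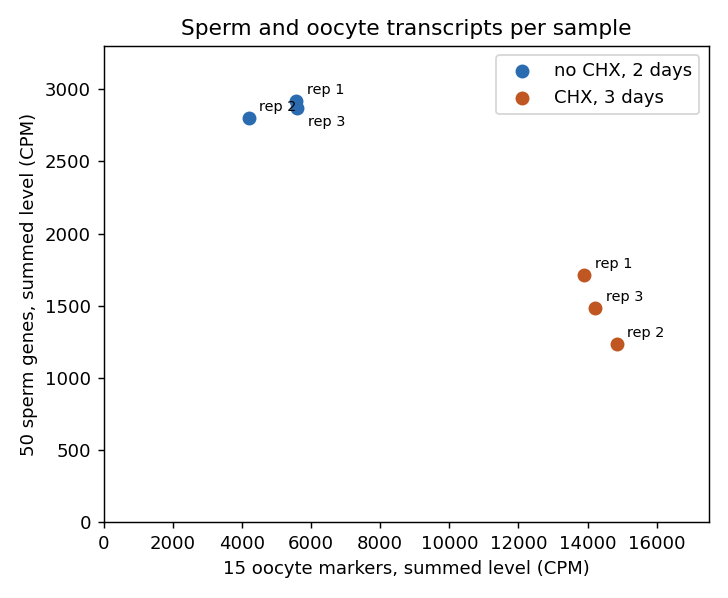
Summed level of the 50 sperm genes against that of 15 oocyte markers in each sample, both in CPM (blue, no CHX for 2 days; orange, CHX for 3 days; labels give the replicate). The samples form separate groups, with sperm levels of 2802 to 2918 CPM beside oocyte levels of 4193 to 5585 CPM without CHX, and 1236 to 1713 CPM beside 13890 to 14840 CPM with it.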

How the data were processed

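Per the file headers, the deposited values are raw counts of reads in the coding region, for 1 transcript of each gene, placed on WBcel235. WBcel235 and DESeq2 (no version) also stand in the submitters' processing notes. Aligner, counter, strand setting and the treatment of multiply matching reads are not stated in the sources used here, so single values of near-identical msp, gsp and ssq copies are uncertain. Following the labels' protocols, Trizol RNA was depleted of ribosomal RNA with RNase H before SMARTER library preparation. Without molecular identifiers, intervals cover counting error only.

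Groups came from the sample titles. The counts were fitted with edgeR 4.0.16 under R 4.3.3: filterByExpr (minimum count 10, minimum total 15), which kept 94.1% of counts, TMM, robust quasi-likelihood F-tests, and Benjamini-Hochberg adjustment at 0.05 over 5641 genes. Standard errors are the log2 fold change over the root of F. Alternatives used DESeq2 1.42.0, limma 3.58.1 (voom), other scalings and filters, a replicate block and each sample left out. Replicates differed beyond sampling noise (chi-square over degrees of freedom 2.22 to 3.15). The fit was tested on simulated data. Ensembl's WBcel235 annotation gave coding lengths and exons for 49 of 50 members. Sequences, groups of copies by protein identity and promoter motifs were not analysed here. The rule for naming took all called members and members with a mean of at least 30 counts per sample. Of each list it took the 2 called genes of smallest p and the 2 of highest mean CPM. Some genes that it took from the lists, myo-3 and gld-1 among them, were not described above. Further genes were named with their values seen. The members and lists were chosen with earlier results of these data known.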

Additional observations from a re-analysis of the deposited data

How the results depend on the processing

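All alternatives kept 0 sperm genes called higher, and the sign of every called member. The number called lower, 14, was 9 with DESeq2 (11.8% of all genes lower), 8 with library totals alone and 9 with the stricter filter (10 members tested), where fewer genes were tested; for the others the cause was not tested. With limma-voom it was 13 (14.8% of all genes lower). It ran from 8 to 10 with 1 replicate left out. Library totals moved the median of all tested genes from 0.02 to 0.18 and that of the tested members from -1.01 to -0.85, while the difference between them stayed at -1.03 in both. Over all genes 1419 were called (579 higher, 840 lower), 1456 with library totals (851 and 605), and 945 to 1271 with 1 replicate left out. The log2 ratio of summed member counts was -0.95, and -0.80 to -1.07 over scalings and replicates left out. With a replicate block 1225 genes and 11 members, all lower, were called. Samples with the same replicate number did not deviate together (correlations -0.05, -0.03 and -0.01; 0 of 6 samples correlated best with their own number), so the numbers were not taken as pairs. At this depth the main filter left 23 members to test, the looser filter 35, and no filter 44.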
